A study of Mus musculus with 52 samples.

Results

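The 9 genes described here are 8 that encode enzymes of haem synthesis (Alas1, Alas2, Alad, Uros, Urod, Cpox, Ppox and Fech) and Tspo2, which is not an enzyme of the pathway. They were chosen by name and make up 9 of the 28786 gene rows of a count table from single mouse bone marrow cells. All 52 cells carry the label primed HSCs (haematopoietic stem cells) and come from C57BL/6 mice of the genotype Cd4-cre;R26Tdtomato, aged 6 to 8 weeks, in which Cre driven by Cd4 sequences can switch on a tdTomato reporter in the Rosa26 locus. Red cells had been lysed with 0.16 M ammonium chloride. Each cell was made into a library of its own by Smart-seq2, a plate method that copies whole transcripts and uses no molecular identifiers. The labels give 1 group, no control and no animal, so the cells form 1 sample, values are set side by side without a test, and cells are called by the number in their titles.

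Haem is the iron-carrying ring of haemoglobin, and developing red cells make more of it than any other cell of the marrow. The pathway starts in the mitochondrion, where 5-aminolevulinate synthase joins glycine and succinyl-CoA. Alas1 encodes the form of this enzyme that most cells use, and the X-linked Alas2 encodes the erythroid form. The next enzymes work in the cytosol: Alad makes porphobilinogen, Uros closes the ring and Urod trims its side chains. Cpox and Ppox then oxidise the ring in the mitochondrion, and Fech inserts the iron. The 8 enzyme genes cover 7 steps, since Alas1 and Alas2 serve the same one. Tspo2 encodes an erythroid relative of the mitochondrial outer membrane protein Tspo and is known to bind cholesterol. Klf1 and Gata1 encode transcription factors of the red cell lineage, and Car1 encodes a carbonic anhydrase of early erythroid cells.

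Of the 52 cells, 49 were kept, with 85519 to 12446477 reads each (median 2187580). Clustering without the 9 genes, the related genes, Klf1, Gata1 and Car1 gave 30 erythroid-like cells, 18 HSC-like cells and cell 34 on its own. Of the 15 erythroid markers 10 were higher in the erythroid-like cells, and of the 13 HSC markers 9 in the HSC-like cells. The 10 include Klf1, Gata1 and Car1, so the name of the class is not independent of these genes. The erythroid markers not counted as higher were the adult globin genes and Slc4a1. The HSC markers not counted as higher were Procr, Slamf1, Ly6a and Fgd5. None of the 13 HSC markers was higher in the erythroid-like cells, although every cell is labelled as an HSC, and the HSC-like cells were also higher in 2 of 9 neutrophil and monocyte markers (Lyz2 and Prtn3) and 1 of 7 B lineage markers (Cd79b), whose part in the results was not tested. Erythroid-like cells were deeper, with a median of 2993790 reads against 1192450 reads in HSC-like cells. Some cells stood apart. Cell 9 was the shallowest, with 85519 reads and 2304 CPM (reads of a gene scaled by the cell's total reads, as counts per 1e+06) of the B cell gene Cd79a. Cell 34 had 39229.8 CPM of the myeloid gene Lyz2. Cells 6 and 13 were alike to a correlation of 0.951 (log2 scale), where the median pair of cells reached 0.576 and any other pair at most 0.822. This closest pair was split between the classes, with cell 6 erythroid-like and cell 13 HSC-like. Reads of 1 well found in another were not measured.

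Most steps of the pathway after the first were found in most cells, while the first step was found in about as many cells as lacked it. A step counted as found in a cell with at least 1 read of its gene, and the first step with a read of Alas1 or Alas2. Urod was found in 47 of 49 cells (95.9%, exact 95% interval 86.0 to 99.5), Cpox in 46 (93.9%, 83.1 to 98.7), Alad in 44 (89.8%, 77.8 to 96.6) and Fech in 41 (83.7%, 70.3 to 92.7). Ppox followed with 37 cells (75.5%, 61.1 to 86.7) and Uros with 31 (63.3%, 48.3 to 76.6). The first step was found in 26 cells (53.1%, 38.3 to 67.5), each of which had an Alas1 read. Intervals are for the number of cells and treat these as independent draws, although the cells form 1 sample and no animal is named. They do not cover error in the reads, and PCR reads without identifiers are not independent molecules.

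Cells had a read of 5.55 ± 1.57 of the 7 steps (SD over 49 cells), and 17 cells had all 7 (34.7%, interval 21.7 to 49.6). Erythroid-like cells had 6.00 ± 1.20 steps and HSC-like cells 5 ± 1.75. All 7 steps were found in 14 of the 30 erythroid-like cells (46.7%, 28.3 to 65.7) and in 3 of the 18 HSC-like cells (16.7%, 3.58 to 41.4). With every cell thinned to 85519 reads, which takes away the difference in depth, these counts were 11 of 30 and 2 of 18, and at 10 CPM or more 9 of 30 and 2 of 18. At 10 CPM or more, 11 of 49 cells had all 7 steps. Among the 12 cells that lacked a read of exactly 1 step, 5 lacked Alas1 and Alas2, 5 lacked Uros and 2 lacked Ppox. The fewest steps, under 4, were found in erythroid-like cells 9 and 44, HSC-like cells 7, 16 and 26, and cell 34.

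**Figure D1:**
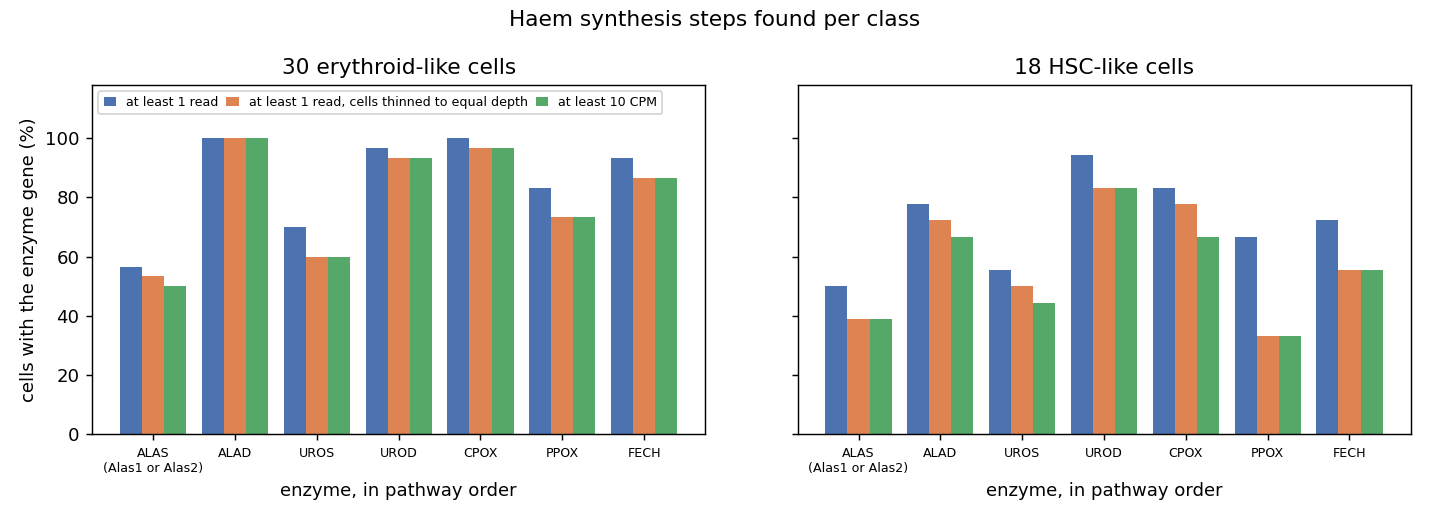
Share of cells (vertical axis, %) in which each of the 7 measured steps (horizontal axis, in pathway order) was found, in 30 erythroid-like cells (left) and 18 HSC-like cells (right). Bars stand for at least 1 read, at least 1 read after every cell was thinned to the same depth, and at least 10 CPM; Alad was found in 30 of 30 erythroid-like cells in each way of counting, and ALAS and UROS have the lowest bars there.

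Alas1, on chromosome 9 (106233455 to 106248654, minus strand, GRCm38), was low in most cells but not in all. It stood at 0 to 170 CPM, with a median of 0.549 CPM over the 49 cells and of 43.3 CPM over the 26 cells with a read. The highest values, 170 CPM in cell 41 and 157 CPM in cell 21, were both in HSC-like cells. Cell 41 had 0 CPM of Alad and 0.751 CPM of Fech beside it, and cell 21 had 165 CPM of Alad and 93.0 CPM of Fech. The 23 cells without a read of Alas1 or Alas2 were 13 erythroid-like cells, 9 HSC-like cells and cell 34, and 15 of them had reads of at least 5 of the other 6 steps. Cells without an Alas1 read were shallower, with a median of 1012000 reads against 3021040 reads in cells with one. After thinning to equal depth 23 cells still had an Alas1 read, against 26 before.

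Alas2, on the X chromosome (150547375 to 150570638, plus strand), had a read in 2 of 49 cells (4.08%, 0.498 to 14). HSC-like cell 2 had 357 reads (47.7 CPM) and erythroid-like cell 23 had 2 reads (0.612 CPM), while the other 47 cells had 0. The class of cell 2 was not firm, since a second clustering, by k-means in 2 groups, placed it with the erythroid-like cells. Cell 2 also had the highest summed level of 4 adult globin genes, 638 CPM, against 133 CPM in the next cell and a median of 1.28 CPM. Its Klf1 level was 1160 CPM, its Car1 level 6366 CPM and its Alas1 level 24.3 CPM. Alas2 rises late in red cell development, and its near absence here stands beside Klf1 in 46 cells and Car1 in 49.

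The promoters of Alas2 and Tspo2 are shown because the genes lie at opposite ends here, Alas2 near 0 in these cells and Tspo2 among the genes most alike to Gata1. The windows are the 250 bases before the RefSeq start on GRCm38.p6, on the gene's strand, chrX:150547167-150547416 (plus) for Alas2 and chr17:48451502-48451751 (minus) for Tspo2. Capitals mark AGATAA, a motif of GATA factors, and CCACCC, a motif of KLF factors, or their reverse complements TTATCT and GGGTGG; runs of GGGTGG overlap by 1 base in Alas2.
Alas2: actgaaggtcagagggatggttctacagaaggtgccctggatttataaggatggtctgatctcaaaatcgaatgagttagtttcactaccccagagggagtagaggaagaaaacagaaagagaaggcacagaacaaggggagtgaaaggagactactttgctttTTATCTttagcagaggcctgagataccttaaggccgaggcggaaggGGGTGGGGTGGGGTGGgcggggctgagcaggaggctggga
Tspo2: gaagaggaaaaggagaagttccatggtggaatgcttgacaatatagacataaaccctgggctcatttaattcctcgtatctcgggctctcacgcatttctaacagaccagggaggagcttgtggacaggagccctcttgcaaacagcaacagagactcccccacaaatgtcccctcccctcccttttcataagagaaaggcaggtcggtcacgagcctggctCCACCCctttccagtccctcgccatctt
The Alas2 window holds 1 TTATCT, starting 86 bases before the start, and 3 GGGTGG, starting 40, 35 and 30 bases before it. The Tspo2 window holds CCACCC 28 bases before the start and no AGATAA. RefSeq windows matched 8 of the 9 genes, with 11 starts in all; AGATAA was in 1 of the 11 windows and CCACCC in 3, the third being at a start of Alas1. Of all 32851 windows of this length, 9.99% hold AGATAA and 28.1% hold CCACCC on either strand. A match is a match of letters and not a site in use.

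Alad and Urod, of the cytosolic steps, were the enzyme genes of highest level. Alad (chromosome 4, 62509169 to 62519918, minus strand) stood at 407 ± 278 CPM (median 519, range 0 to 1183 CPM). In the erythroid-like cells it lay at 167 CPM or more in all 30, with a median of 554 CPM, and in the HSC-like cells at 0 to 765 CPM with a median of 126 CPM. Urod, on the same chromosome (116989965 to 116994413, minus strand), averaged 212 ± 136 CPM (median 207, range 0 to 585 CPM) and reached 10 CPM in 28 of 30 erythroid-like and 15 of 18 HSC-like cells. A read of it was found in 29 of 30 erythroid-like and 17 of 18 HSC-like cells. Uros (chromosome 7, 133686243 to 133710072, minus strand) was far lower than Alad and Urod, at 45.6 ± 68.5 CPM (median 13.3). Its highest levels, 309 CPM in cell 33 and 249 CPM in cell 47, were in HSC-like cells. Per kb of coding transcript its mean was 58.5 CPM, between 51.7 for Ppox and 68.1 for Cpox. By the joined length of all exons it was 12.7 CPM per kb, below 17.1 for Ppox and 31.7 for Cpox.

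Cpox, Ppox and Fech, of the mitochondrial end of the pathway, were found at middle levels and varied widely. Cpox (chromosome 16, 58670292 to 58717636, plus strand) averaged 211 ± 196 CPM, from 0 to 870 CPM in cell 49. Fech averaged 183 ± 165 CPM, from 0 to 541 CPM in cell 17. Ppox (chromosome 1, 171275990 to 171281186, minus strand) averaged 77.3 ± 88.7 CPM, from 0 to 335 CPM in cell 41. Some erythroid-like cells lacked reads of these steps. Cell 44 had 0 reads of both Ppox and Fech beside 556 CPM of Alad and 883 CPM of Klf1. Cell 50 had 0 reads of Ppox and Fech with Klf1 at 852 CPM, and cell 28 had 1 read of Fech with Klf1 at 850 CPM. Cell 44 had 113234 reads in all, cell 50 had 3422372 and cell 28 had 3289845.

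Tspo2 (chromosome 17, 48447907 to 48451522, minus strand) was either clearly present or nearly absent. It averaged 213 ± 201 CPM (median 202, range 0 to 740.9 CPM) and reached 10 CPM in 33 of 49 cells. Of the erythroid-like cells 29 of 30 reached 10 CPM (all but cell 9), and of the HSC-like cells 4 of 18, which were cells 2, 3, 13 and 38 at 516, 103, 233 and 444 CPM. Each of the 33 cells at 10 CPM or more of Tspo2 had at least 100 CPM of Klf1, a level chosen after the values were seen, and 36 cells had that much Klf1.

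**Figure D2:**
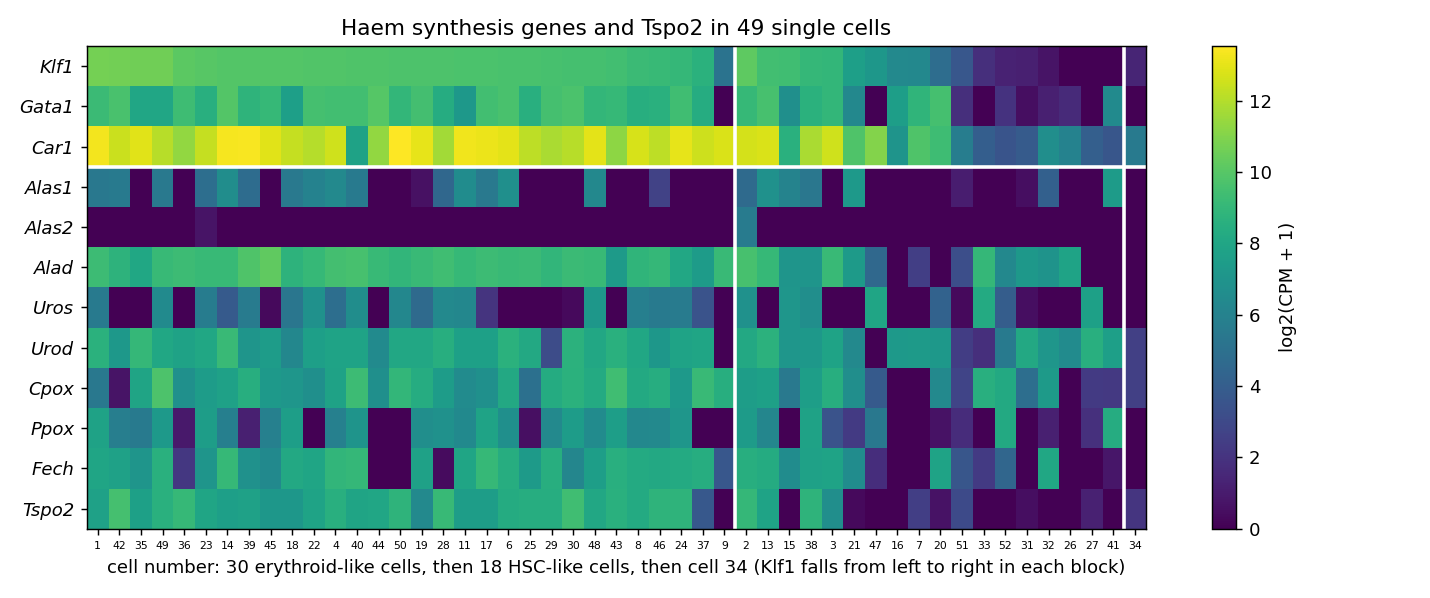
Level of each gene (rows, log2(CPM + 1)) in each of 49 cells (columns, by cell number), with 30 erythroid-like cells first, then 18 HSC-like cells, then cell 34, each block ordered by Klf1 from high to low. Alad, Urod and Tspo2 fill nearly the whole erythroid-like block, Alas1 and Uros are patchy in both blocks, and Alas2 is dark but for cells 2 and 23.

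Levels of different genes can be compared only per length. Divided by the median length of the gene's coding transcripts, the mean level was 444 CPM per kb for Tspo2, 332 for Alad, 218 for Urod, 78.1 for Fech, 68.1 for Cpox, 58.5 for Uros, 51.7 for Ppox, 16.2 for Alas1 and 0.502 for Alas2. The SD over cells was 421 CPM per kb for Tspo2, 227 for Alad, 139 for Urod, 70.2 for Fech and 23.7 for Alas1, so levels of single cells overlapped widely between neighbours in this order. Divided by the joined length of all exons, Alad stood at 217 CPM per kb, Urod at 81.8, Tspo2 at 65.9, Uros at 12.7 and Alas1 at 4.82, so Tspo2 no longer led. Alas1 was the lowest detected enzyme gene but for Alas2 by either length. Among the 7 steps, per length, Alad was highest in 32 of 49 cells and the first step was lowest or tied for lowest in 32.

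The genes parted between the classes, with mean levels of Tspo2, Alad, Cpox and Fech at least 2-fold higher in erythroid-like cells, while for Alas1 and Uros the means and the medians pointed different ways. Mean levels were 303 ± 173 CPM of Tspo2 in erythroid-like cells and 72.8 ± 160 CPM in HSC-like cells, a ratio of 4.17. For Alad the erythroid-like mean was 550 ± 197 CPM and the HSC-like mean 191 ± 240 CPM (ratio 2.87). Cpox averaged 276 ± 205 and 114 ± 128 CPM in erythroid-like and HSC-like cells (ratio 2.43), and Fech 238 ± 164 and 103 ± 129 CPM in the same order (ratio 2.32). For each of these 4 genes the cells of both classes overlapped. The HSC-like means leaned on a few cells: with k-means in 2 groups, which moves cells 2 and 13 to the erythroid-like side and cell 34 to the other, the ratio was 9.27 for Tspo2, 4.42 for Alad, 3.57 for Fech and 2.77 for Cpox. The 8 enzyme genes summed to 1466 ± 394 CPM in erythroid-like cells, against 733 ± 531 CPM in HSC-like cells.

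The ratio was 1.55 for Urod (249 ± 133 CPM in erythroid-like, 161 ± 119 CPM in HSC-like cells) and 1.34 for Ppox (87.3 ± 72.3 and 65.0 ± 112 CPM). Alas1 stood at 28.9 ± 34.9 CPM in erythroid-like cells, against 32.8 ± 56.5 CPM in HSC-like cells, a ratio of 0.881, and Uros 36.3 ± 40.2 and 63.6 ± 99.4 CPM, a ratio of 0.571. Their medians were higher in erythroid-like cells, at 13.4 CPM of Alas1, against 0.213 CPM in HSC-like cells, and at 26.9 CPM of Uros, against 0.354 CPM in HSC-like cells. The Alas1 ratio of means was 1.18 with the k-means classes and 1.07 without cells 9, 13, 23 and 34. Of the 8 members found in 10 cells or more (all but Alas2), 4 thus reached a ratio of 2, against 15.1% of the 9758 genes with as many cells. Their median ratio was 1.93, and that of all these genes 0.982. The classes come from genes that vary with these members, so the ratios describe the classes. With medians in place of means 7 of the 8 reached a ratio of 2, all but Urod, so Alas1 and Uros were among them. No share of all genes is set beside this count, so it is not read as a result about the members. The HSC-like medians of Alas1, Uros and Tspo2 lay near 0, that of Tspo2 at 0.339 CPM. CPM give a share of each cell's reads, so fewer transcripts of a gene cannot be told apart from more RNA of other genes. RNA per cell was not measured.

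**Figure D3:**
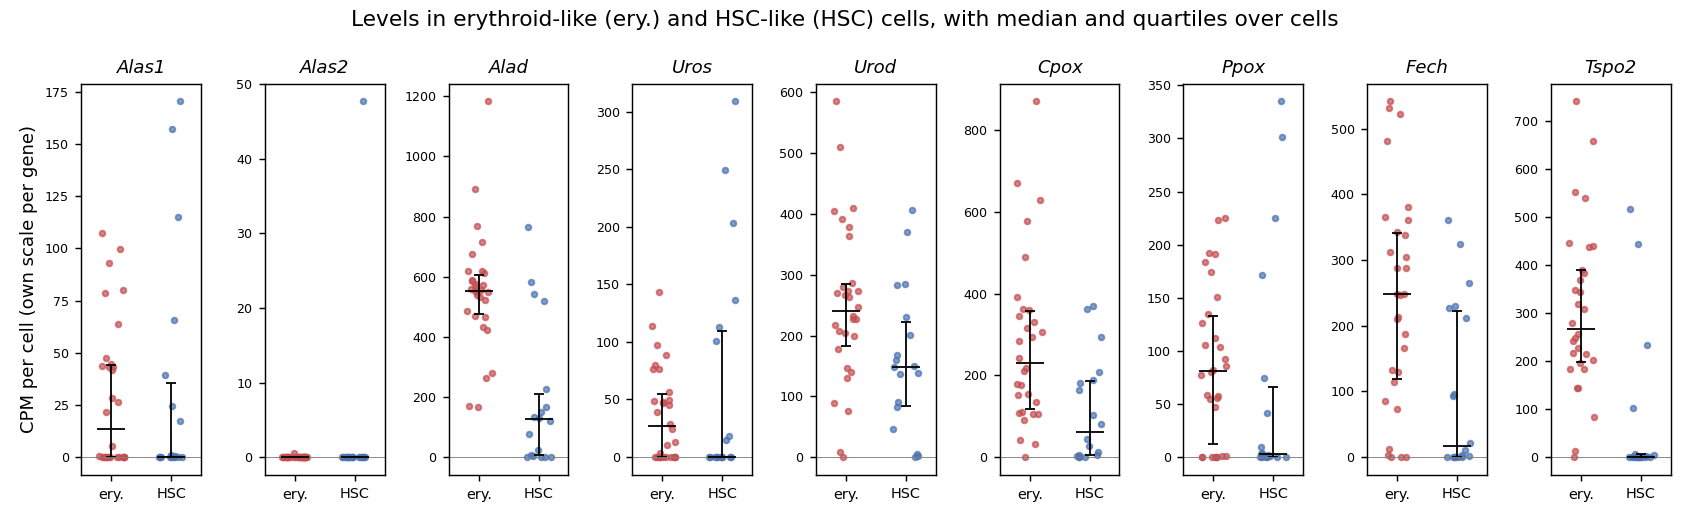
Level of each gene (CPM, own vertical scale) in 30 erythroid-like cells (left in each panel) and 18 HSC-like cells (right); each point is a cell, and bars give the median and quartiles. Tspo2 and Alad have medians of 267 and 554 CPM in erythroid-like cells and 0.339 and 126 CPM in HSC-like cells, and Alas1 and Uros have medians of 13.4 and 26.9 CPM in erythroid-like cells and 0.213 and 0.354 CPM in HSC-like cells; the points of both classes overlap for each of these 4 genes.

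Over the 49 cells, the summed enzyme genes went with Klf1, Gata1 and Car1 (Spearman correlation 0.635, 0.562 and 0.639). These and the following correlations are across cells of 1 sample that share the scaling to total reads, and carry no p. Alad and Tspo2 were closest to Klf1, at 0.696 and 0.648, which placed them at percentiles 99.9 and 99.7 of all genes tested. With Gata1, Tspo2 reached 0.634, Alad 0.507 and Fech 0.489, and with Car1 Alad reached 0.612, Fech 0.471 and Tspo2 0.460. Urod lay at 0.391 with Klf1, 0.419 with Gata1 and 0.429 with Car1. Uros was lowest, at 0.156 with Klf1, -0.118 with Gata1 and 0.107 with Car1. The rare Alas2 reads gave 0.277 with Klf1, which rests on 2 cells.

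A correlation of 0.3 or more with Klf1 was found for 6 of the 8 members tested (Alas1, Alad, Urod, Ppox, Fech and Tspo2), against 25.5% of 9757 genes. With Gata1 it was found for 4 (Alad, Urod, Fech and Tspo2), against 19.6%, and with Car1 for 5 (the same 4 and Cpox), against 18.8%. The members' median correlations were 0.354 with Klf1, 0.339 with Gata1 and 0.403 with Car1, beside 0.162, 0.136 and 0.117 over all genes tested. Given total reads, as a partial correlation, 2 members (Alad and Tspo2) stayed at 0.3 or more with Klf1, with Fech at 0.293 and Urod at 0.230. With every cell thinned to the same depth the count was 5. Gata1's count was 7 by Pearson correlation of log2 values, and Klf1's was 4 without cells 9, 13, 23 and 34. No share of all genes is set beside these alternative counts, so their changes are not read as results about the members.

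**Figure D4:**
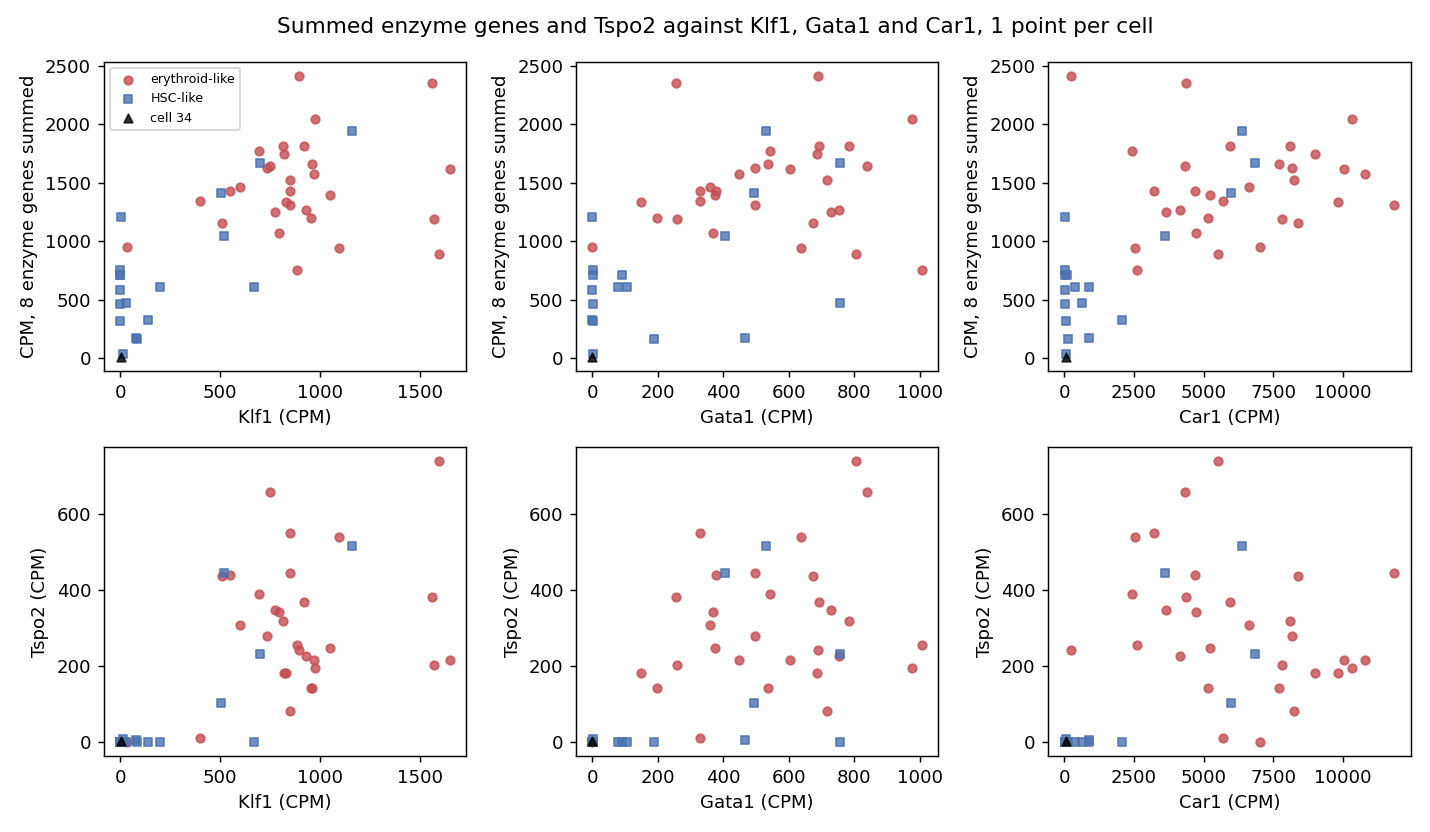
Summed CPM of the 8 enzyme genes (top) and CPM of Tspo2 (bottom) against CPM of Klf1, Gata1 and Car1 (columns), 1 point per cell. Tspo2 lies below 10 CPM in 14 of 18 HSC-like cells and at 10 CPM or more in 29 of 30 erythroid-like cells, and within the erythroid-like cells the summed enzymes lie at a correlation of 0.0443 with Klf1.

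Within the 30 erythroid-like cells the members hardly followed these genes. The summed enzymes lay at 0.0443 with Klf1, 0.163 with Gata1 and 0.129 with Car1. Alas1 with Klf1 (0.338) was the 1 member correlation at 0.3 or more, against 8.50% of all genes, and 0 members reached it with Gata1 (7.0% of genes) or with Car1 (6.70%). Tspo2 lay at -0.0176 with Klf1, 0.275 with Gata1 and -0.394 with Car1, and Cpox at -0.361 with Klf1. Klf1 and Gata1 themselves lay at 0.135 there and Klf1 and Car1 at 0.0696. The quartiles of Klf1 were 756 and 966 CPM in this class, against 82.2 and 919 CPM over the 49 cells. Its full range here was 35.1 to 1648 CPM, but the low end was cell 9 alone, with 3 reads of Klf1. The next lowest value was 402 CPM in cell 37. Any part of the spread of Klf1 in the correlations was not tested.

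Within the 18 HSC-like cells 5 members reached 0.3 with Klf1 (Alas1, Alad, Cpox, Fech and Tspo2), against 35.9% of all genes. With Gata1 3 did (Urod, Fech and Tspo2), against 30%, and with Car1 3 (Alad, Fech and Tspo2), against 30.7%. Fech lay at 0.611 with Klf1, 0.542 with Gata1 and 0.570 with Car1, and Tspo2 at 0.516, 0.566 and 0.613. The summed enzymes lay at 0.388, 0.326 and 0.294 in that order. Without cells 2 and 13, which k-means put on the erythroid-like side, Fech stayed at 0.443, 0.359 and 0.388 with Klf1, Gata1 and Car1, and Tspo2 at 0.302, 0.410 and 0.451. The summed enzymes then lay at 0.127 with Klf1, 0.0737 with Gata1 and -0.00294 with Car1.

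**Figure D5:**
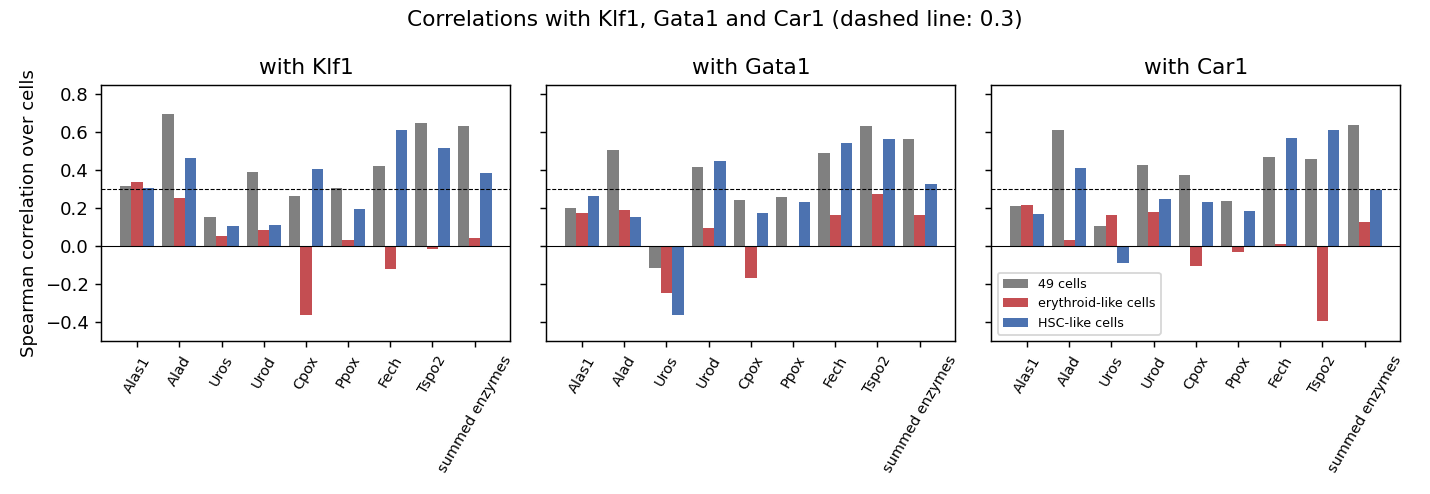
Spearman correlation over cells (vertical axis) of each of 8 members and of the summed enzyme genes with Klf1, Gata1 and Car1 (panels), for all 49 cells, the 30 erythroid-like cells and the 18 HSC-like cells; the dashed line marks 0.3. Over all cells Alad and Tspo2 stand at 0.696 and 0.648 with Klf1, and in the erythroid-like cells Tspo2 stands at -0.0176 with Klf1, 0.275 with Gata1 and -0.394 with Car1.

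Among themselves the members were alike in some pairs and not in others. Of their 28 pairs 14 lay at 0.3 or more over the 49 cells, with a median of 0.283, where 7.09% of all pairs of the 9758 genes did, with a median of 0.0600. Alad with Tspo2 (0.524) was the closest pair, followed by Ppox with Fech (0.494) and Cpox with Fech (0.488). Both join steps at the mitochondrial end, but Cpox with Ppox, of the same end, lay below 0.3 at 0.260. Alas1 with Cpox was lowest at -0.0386, and Uros stayed below 0.3 with every other member. Within the erythroid-like cells 3 of the 28 pairs reached 0.3 (median 0.0852), against 9.15% of all gene pairs (median 0.0468). The shares are close, so this count is not read as a result about the members. Alas1 with Fech was highest there at 0.438. Within the HSC-like cells 10 did (median 0.209), against 16.99% of all gene pairs (median 0.0543), led by Cpox with Fech at 0.733.

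The genes most alike to each member over the 49 cells, among 6781 that averaged 10 CPM or more and were found in 25 cells or more, included red cell genes for Tspo2 and Fech. Tspo2 was closest to Ermap (0.759) and Kel (0.720), which encode red cell membrane blood group proteins, and to Trib2 (0.744). Fech was closest to Rhd (0.708), of the Rh blood group, to C1qtnf12 (0.690) and to the mitochondrial chaperone gene Hspd1 (0.681). Alad was closest to Klf1 itself (0.696), Stx2 (0.681) and the thymidine kinase gene Tk1 (0.665). For Cpox they were Eif5a (0.643), Cited4 (0.614) and Mrpl47 (0.609), for Urod Fam234b (0.630), Rpa3 (0.601) and Atp5e (0.597), and for Ppox Asns (0.638), Aplp2 (0.624) and Ccdc32 (0.618). Alas1 was closest to Syap1 (0.650), Phykpl (0.618) and Eya3 (0.605), and Uros to Tmem168 (0.569), Smarcc1 (0.542) and Eapp (0.529).

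Of 23 related genes, which include genes that carry substrates and haem, build iron-sulphur clusters or break haem down, 21 had a read in at least 25 cells, 0 in every cell and 0 in fewer than 5.

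A correlation of 0.3 or more was found with Klf1 for 10 of the 22 related genes tested, with Gata1 for 8 and with Car1 for 8, beside 25.5%, 19.6% and 18.8% of all genes. Below 0 with all 3 were 4 related genes, which were the mitochondrial iron carrier gene Slc25a37, the iron-sulphur scaffold gene Iscu, Hmox2 and Bach1. This count has no share of all genes beside it and is not read as a result about the related genes. Among those at 0.3 or more with at least 2 of Klf1, Gata1 and Car1 were the mitochondrial glycine carrier gene Slc25a38 and the transporter genes Abcb10 and Abcb6. Others were the porphyrin transport gene Tmem14c, the iron-sulphur cluster gene Glrx5 and the biliverdin reductase gene Blvrb. Blvrb was highest, at 0.714 with Klf1, 0.642 with Gata1 and 0.666 with Car1, with 776 ± 349 CPM in erythroid-like cells, against 321 ± 420 CPM in HSC-like cells. Tspo, the widespread relative of Tspo2, was found in 46 cells at 322 ± 173 CPM, and lay at -0.0745 with Klf1, 0.0408 with Gata1 and -0.0946 with Car1. Bach1, whose product is a haem-sensing repressor, had 8.86 ± 23.5 CPM in erythroid-like cells, against 63.0 ± 126 CPM in HSC-like cells (ratio 0.141). The haem-breaking Hmox1 had a read in 9 cells.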

How the data were processed

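The authors deposited estimated counts (expected counts, 4.23% of them not whole) for 28786 Ensembl identifiers in 52 cells, made with Trim Galore 0.5.0 and Salmon 0.03.1 on GRCm38, per the submitters' processing notes. The transcript set, strand setting, filters and sort gate are not given in what was used here. Symbols came from GENCODE M21 for 27728 identifiers (96.3%). Exons of Alas1, Alas2, Cpox and Ppox overlap an antisense gene (4930500F10Rik, Apex2, Gpr15 and B4galt3), so their counts are uncertain without a stated strand, and Alas1 and Alas2 are related sequences.

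Counts were rounded and scaled to CPM per cell. Cells needed 50000 reads, 1000 genes and at most 20% mitochondrial reads; cells 5, 10 and 12 were left out. Depth was 85519 to 12446477 reads. No doublet caller was run on these single-cell libraries. Ward clustering used log2(CPM + 1) of the 1000 genes of highest variability, reduced to 10 principal components, without the 9 members, the 23 related genes, Klf1, Gata1 and Car1; 3 clusters had the highest silhouette (0.375, against 0.369 for 2). Clusters were named from marker lists, and the erythroid list holds Klf1, Gata1 and Car1. The code was tested on simulated data. Python 3.11.15, scipy 1.17.1 and scikit-learn 1.9.0 were used, with Clopper-Pearson intervals. Named genes were all members, Klf1, Gata1, Car1, related genes by extremes of detection or by correlation, and the 3 genes most alike to each member; Hmox1, Hmox2, Bach1, Tspo, Slc25a37 and Iscu were named after their values were seen. Members and lists were chosen with earlier results of these data known. Some related genes are counted but not reported here by name. No p-value was computed. Alternatives covered detection, depth, scaling, correlation type, cells and clustering.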

Additional observations from a re-analysis of the deposited data

Results flagged for a closer look

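Of the 3 cells left out of all comparisons above, cells 5 and 12 held more than 3 reads, the limit that a count of 0 allows, of some of these genes. Cell 5, left out for its mitochondrial share, had 73 reads of Tspo2, 59 of Cpox, 19 of Urod, 5 of Fech and 4 of Ppox. Cell 12, left out for depth, had 11 reads of Alad, 8 of Urod, 8 of Tspo2 and 5 of Fech. Cell 10 had at most 2 reads of any of the 9 genes.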

How the results depend on the processing

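The correlations of the summed enzymes over all 49 cells stayed at 0.3 or more with Klf1, Gata1 and Car1 under each change of scaling, depth, rounding, correlation type and cell set that kept both classes. Within erythroid-like cells they were 0.0443, 0.163 and 0.129, and within HSC-like cells 0.294 with Car1. Without cells 2 and 13, an alternative chosen after seeing the data, they were 0.127, 0.0737 and -0.00294 within HSC-like cells. The count of members at 0.3 or more with Klf1 was 2 given total reads, 1 in erythroid-like cells and 3 in HSC-like cells without cells 2 and 13, in place of 6. With Gata1 it was 7 by Pearson correlation and 0 in erythroid-like cells, in place of 4. With Car1 it was 0 in erythroid-like cells, 3 in HSC-like cells and 2 in HSC-like cells without cells 2 and 13, in place of 5. Shares of all genes are given above only for the main counts and for those within each whole class. At 10 CPM 11 cells had all 7 steps, in place of 17. By medians 7 members reached a ratio of 2, in place of 4, with no share of all genes beside that count. Of single correlations at 0.3 or more over all cells, the sign changed within erythroid-like cells for Fech with Klf1 (-0.122), Tspo2 with Klf1 (-0.0176), Cpox with Car1 (-0.106) and Tspo2 with Car1 (-0.394), and within HSC-like cells without cells 2 and 13 for Urod with Klf1 (-0.177) and Alad with Gata1 (-0.152). Lower correlations also changed sign, among them Cpox with Klf1 (-0.361), Cpox with Gata1 (-0.167) and Ppox with Car1 (-0.0288) within erythroid-like cells. The within-class sets hold fewer cells; the cause was not tested. No paired analysis was possible because all cells carry 1 label. With 1 sample and no replicate, depth limits what a missing read shows.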
